A study of Mus musculus with 4 samples.

Results

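Toll-like receptors and the proteins that serve them were followed through mouse bone marrow at single-cell level. The set holds 10 genes, chosen by symbol among the 33696 genes in the files: Tlr1, Tlr2, Tlr4, Tlr6, Tlr7, Tlr9 and Tlr13, the co-receptors Cd14 and Ly96, and the adaptor Myd88. All 10 were found. Hosts were lethally irradiated and received a 50:50 mixture of CD45.1+ Tet2+/+ and CD45.2+ Tet2+/- marrow (host genotype and age: not given in the sources used here). After 1 month of engraftment they were treated for 7 months. The Control group received PBS injections and drinking water with 100 mM NaCl, and the Butyrate group received PBS injections and water with 100 mM NaButyrate. The B12 group received twice-weekly intraperitoneal injections of 0.29 µg vitamin B12 with NaCl water, and the B12+Butyrate group received both agents. Only live CD45.2+ cells, thawed from viably frozen marrow, were sequenced, so every library holds Tet2+/- cells that had shared a host with wild-type cells. Marrow of 3 mice was pooled per group, and Kit+ and Kit- sorted cells were mixed 50:50, which sets the proportions of cell classes. Each group is therefore 1 library of the 10x Genomics 3' v3.1 chemistry, with no replicate. No test between groups was made: a fit over both agents would have to take their effects as additive, and the 4 libraries would leave it 1 residual degree of freedom. Where 4 values are listed below, they stand in the order Control, Butyrate, B12, B12+Butyrate.

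Toll-like receptors detect conserved microbial molecules and signal through a cytoplasmic TIR domain. At the cell surface TLR2, paired with TLR1 or TLR6, binds bacterial lipopeptides, and TLR4 binds lipopolysaccharide with its partner MD-2, the product of Ly96, after delivery by CD14. In endosomes TLR7 detects single-stranded RNA, TLR9 detects unmethylated CpG DNA, and mouse TLR13 detects bacterial ribosomal RNA. MyD88 is the adaptor that all of these receptors use to recruit IRAK kinases and activate NF-kB.

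Promoter sequence was found for 6 of the 10 members, Tlr1, Tlr2, Tlr6, Tlr9, Tlr13 and Myd88. Stretches of 3 genes are shown: Tlr2 and Tlr13 because both were several times higher in the later stage of the neutrophil and monocyte lineages, and Myd88 because it differed between libraries. They are RefSeq sequences of build GRCm38.p6, printed 5′ to 3′ on the gene's strand, and each ends at the base before the first GENCODE M21 transcript start found in the window. The UMI counts themselves were made on GRCm39, and no coordinates were carried between the builds. Capitals mark a match to 1 of 4 motifs searched on both strands: GAGGAA, the core bound by the myeloid factor PU.1; GGG and CC with 5 bases of any kind between them, the outline of NF-kB sites; TTGCNNAA, the outline of C/EBP sites; and GAAA at both ends of 2 bases of any kind, the outline of IRF sites.
Tlr2, chr3:83841768-83841808, minus strand: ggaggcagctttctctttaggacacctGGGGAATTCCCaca
Tlr13, chrX:106143114-106143203, plus strand: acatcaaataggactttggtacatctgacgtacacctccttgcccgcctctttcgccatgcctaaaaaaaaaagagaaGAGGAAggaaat
Myd88, chr9:119340042-119340131, minus strand: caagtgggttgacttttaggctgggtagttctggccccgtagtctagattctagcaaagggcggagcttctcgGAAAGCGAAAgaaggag

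In Tlr2 the capitals hold 3 overlapping matches to the NF-kB outline, counting both strands. Tlr13 has 1 match to GAGGAA and Myd88 has 1 match to the IRF outline. In the 200 bases before the RefSeq start, the NF-kB outline is found in 41.4% of 32851 mouse promoters, GAGGAA in 19.0%, TTGCNNAA in 7.47% and the IRF outline in 2.27%. Among the other members, GAGGAA was found before 1 of the 2 starts of Tlr1 and before Tlr9. Of the 2 starts of Tlr6, one held TTGCNNAA and the IRF outline and the other the NF-kB outline. These are matches of letters in a window, not sites known to be bound.

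The 4 libraries held 7932 to 9688 barcodes, of which 6793 to 8752 were kept, 31209 in all, with a median of 11583.5 to 12544.5 UMIs per kept barcode. The share of barcodes over the mitochondrial limit was 8.89%, 13.9%, 9.43% and 5.34%. Between 8 and 23 barcodes were shared by any pair of libraries, at most 0.302% of the smaller one. Tet2 was read at 76.6 to 95.5 CPM over all cells, which checks no label, since all libraries share 1 genotype. Cells were placed in classes by the UMIs of marker genes per 10000 UMIs, with minimums that used no member of the set. The 1072 barcodes that passed the gates of more than 1 lineage and the 668 that passed none were left out. Of the 13 classes with at least 50 cells in every library, 10 had markers of their own lineage among their 10 leading genes. Cell cycle genes led the cycling neutrophil-like class. The early neutrophil-like and early monocyte-like classes are barcodes that passed the neutrophil or monocyte gate and the GMP gate, and GMP granule genes such as Mpo and Prtn3 stood among their leading genes. No monocyte marker was among the 10 of early monocyte-like cells, so both names rest on the gates. Many cells of some classes lay within 2 times their gate's minimum: 20.7% of the 6551 monocyte-like, 36.5% of the 559 plasmacytoid-DC-like, 40.6% of the 822 DC-like, 44.7% of the 376 HSPC-like and 74.1% of the 2764 mature B-like cells. CPM here are UMIs of a gene scaled to the UMI total of its class in 1 library. Since the chemistry counts 3' ends, CPM carry no length term, and levels are compared between classes and libraries, not between genes. Over all kept barcodes the members had between 272 UMIs (Tlr9) and 16572 UMIs (Myd88), so Tlr9 values are the least precise.

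**Figure D1:**
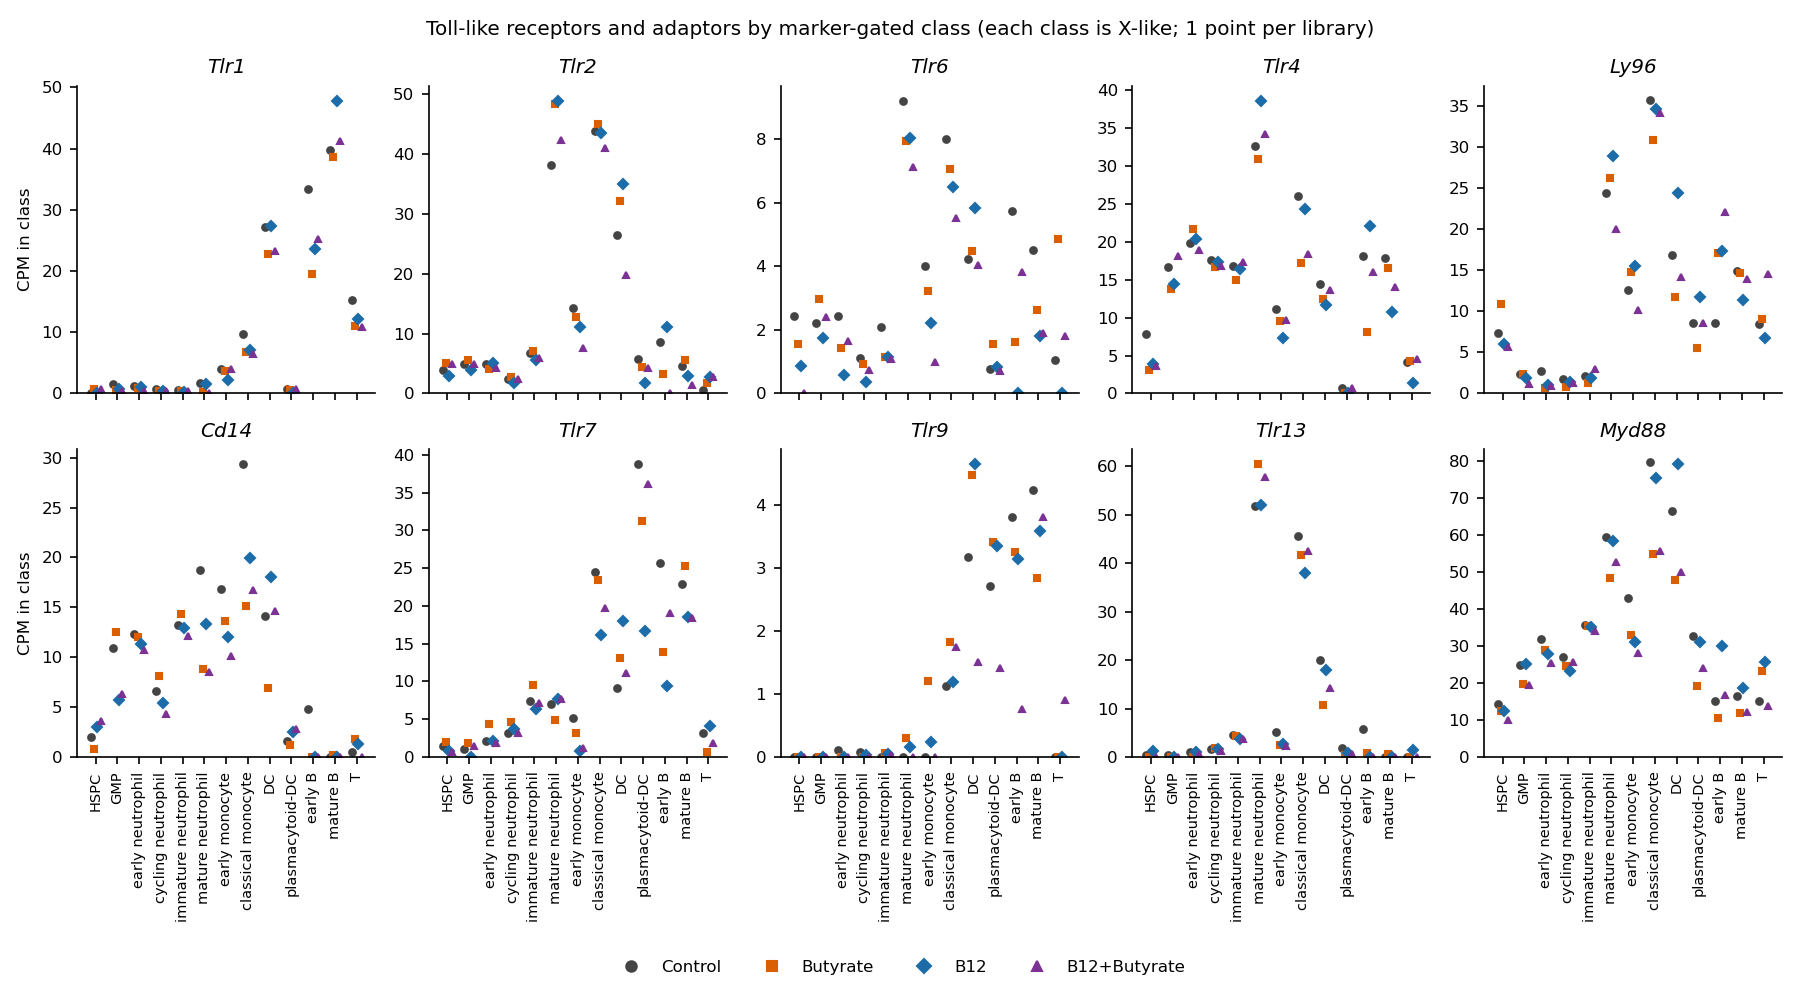
Level of each member in CPM (vertical axes, which differ between panels and start at 0) in the 13 marker-gated classes (horizontal axis), with 1 point per library coloured by group. Tlr2, Tlr13, Tlr4 and Ly96 stand high in mature neutrophil-like and classical monocyte-like cells, Tlr1 in mature B-like cells, and Tlr7 in plasmacytoid-DC-like cells, while no Tlr9 point exceeds 4.65 CPM.

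The surface lipopeptide receptors divided between lineages. Tlr2, the common partner of the lipopeptide-sensing pairs, was read at 38.1, 48.2, 48.9 and 42.4 CPM in mature neutrophil-like cells. In classical monocyte-like cells it was at 43.8, 45.0, 43.5 and 41.0 CPM, and these 2 ranges overlapped. DC-like cells came next at 19.7 to 34.9 CPM, below the range of both classes, and early monocyte-like cells were at 7.67 to 14.2 CPM. Tlr2 was scarce elsewhere: in immature neutrophil-like cells it was at 5.67 to 7.14 CPM, and in T-like cells, which serve here as a class that should lack it, at 0.526 to 2.73 CPM.

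Tlr1, the partner for triacylated lipopeptides, had another order. It was highest in mature B-like cells, at 39.8, 38.6, 47.8 and 41.3 CPM. DC-like cells (22.8 to 27.3 CPM) and early B-like cells (19.6 to 33.4 CPM) followed and overlapped each other, and T-like cells stood below both at 10.9 to 15.2 CPM. Classical monocyte-like cells had 6.402 to 9.65 CPM, and mature neutrophil-like cells no more than 1.78 CPM. Mature neutrophil-like and classical monocyte-like cells, both high in Tlr2, thus had less Tlr1 than mature B-like, DC-like, early B-like and T-like cells. DC-like cells, next in Tlr2 at 19.7 to 34.9 CPM, were not low in Tlr1.

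Tlr6, the partner for diacylated lipopeptides, stayed under 10 CPM in all 13 classes. Its highest levels were 9.20, 7.94, 8.02 and 7.11 CPM in mature neutrophil-like cells and 8.001, 7.06, 6.47 and 5.53 CPM in classical monocyte-like cells, and these ranges overlapped. Tlr1 and Tlr6 are neighbours with near-identical stretches: 26.9% of the 60-base windows in the last 1000 bases of the Tlr1 transcript occur in Tlr6, against 0% of those in the last 1000 bases of Tlr6. How reads that match both were counted was not given in the sources, so Tlr1 levels are uncertain to that extent.

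The lipopolysaccharide receptor complex was spread over the myeloid classes, each component in its own way. Tlr4 was at 32.6, 30.8, 38.6 and 34.2 CPM in mature neutrophil-like cells, above the other 12 of the 13 classes. It was already present in early, cycling and immature neutrophil-like cells, at 15.003 to 21.6 CPM over these stages, and in GMP-like cells at 13.7 to 18.05 CPM. In classical monocyte-like cells Tlr4 was at 26.0, 17.2, 24.3 and 18.3 CPM. Mature B-like cells also had Tlr4, at 10.8 to 17.8 CPM, while plasmacytoid-DC-like cells did not exceed 0.776 CPM.

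Ly96, which encodes MD-2, was highest in classical monocyte-like cells at 35.7, 30.8, 34.6 and 34.1 CPM. Mature neutrophil-like cells had 24.3, 26.3, 28.9 and 20.02 CPM, a range wholly below that of the monocytes. Unlike Tlr4, Ly96 was scarce in the earlier neutrophil stages, at 0.721 to 3.02 CPM in early, cycling and immature cells. It was also read outside the myeloid lineage, at 11.4 to 14.96 CPM in mature B-like and 6.73 to 14.6 CPM in T-like cells.

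Cd14, which hands lipopolysaccharide to MD-2, was at 29.4, 15.1, 19.99 and 16.8 CPM in classical monocyte-like cells. The Control value stood above the other 3 libraries. In mature neutrophil-like cells Cd14 was at 18.7, 8.85, 13.3 and 8.56 CPM, with the same library highest. Immature neutrophil-like cells varied less, at 13.2, 14.3, 12.9 and 12.1 CPM, with Butyrate highest. The next classes in the order of Cd14 overlapped, namely DC-like (6.90 to 18.02 CPM), immature neutrophil-like and early monocyte-like cells (10.1 to 16.8 CPM). Mature B-like cells had 0 UMIs of Cd14 in 3 libraries, where 3 UMIs would be 0.635 to 1.79 CPM, and 0.218 CPM in Butyrate.

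Among the endosomal receptors, Tlr7 was spread over several lineages. Plasmacytoid-DC-like cells, a cell type known for Tlr7, had 38.8, 31.3, 16.7 and 36.2 CPM, with the B12 library low on only 20 UMIs. With gates 2 times as high the median of these 4 values went from 33.7 to 58.1 CPM. Classical monocyte-like cells had 24.5, 23.5, 16.2 and 19.7 CPM, mature B-like cells 18.4 to 25.3 CPM and early B-like cells 9.45 to 25.7 CPM, and with the gates as set all of these ranges overlapped. DC-like cells had 9.16 to 18.02 CPM. Neutrophil-like stages lay mostly lower, at 1.82 to 9.48 CPM, and the top of this range, in immature cells, overlapped early B-like and DC-like cells. The nonclassical monocyte-like class is outside the 13 because 1 library held 48 of its cells, and it was singled out after its values were seen. It had 89.8, 113, 64.7 and 73.3 CPM of Tlr7, above each of the 13 classes. Tlr2 in these cells was at 57.0 to 59.8 CPM, also above each of the 13, and Tlr13 at 53.6 to 72.3 CPM overlapped mature neutrophil-like cells. Tlr1 in the nonclassical class varied widely between libraries, at 2.82 to 24.9 CPM from 31 UMIs in all.

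Tlr13 was highest in the mature phagocyte classes. Mature neutrophil-like cells had 51.8, 60.4, 52.0 and 57.7 CPM, and classical monocyte-like cells had 45.7, 41.7, 38.0 and 42.5 CPM, below the neutrophils without overlap. DC-like cells followed at 10.7 to 20.1 CPM. In T-like cells Tlr13 had 0 UMIs in 3 libraries, where 3 UMIs would be 1.58 to 2.73 CPM, and 1.35 CPM in the B12 library.

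Tlr9 did not reach 10 CPM in any of the 13 classes. Its highest levels were in DC-like cells (1.51 to 4.65 CPM) and mature B-like cells (2.84 to 4.23 CPM). Early B-like (0.764 to 3.81 CPM) and plasmacytoid-DC-like cells (1.42 to 3.41 CPM) followed, and all of these ranges overlapped. In GMP-like and HSPC-like cells Tlr9 had 0 UMIs in all 4 libraries, where 3 UMIs would be 0.432 to 2.14 CPM.

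Myd88 was read in all 13 classes. It was highest in classical monocyte-like cells at 79.6, 54.8, 75.5 and 55.5 CPM. DC-like cells had 66.6, 47.9, 79.1 and 49.98 CPM and mature neutrophil-like cells 59.4, 48.2, 58.4 and 52.7 CPM, and the 3 ranges overlapped. The earlier neutrophil stages lay at 23.2 to 35.6 CPM without overlapping the mature stage. HSPC-like cells still had 9.99 to 14.2 CPM.

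Within the neutrophil lineage, members differed in the stage at which they were high. The ratio of mature to immature neutrophil-like cells was computed inside each library. For Tlr13 the ratio was 11.5, 13.8, 13.8 and 15.2. For Tlr2 it was 5.60, 6.75, 8.62 and 7.20. Ly96 had ratios of 11.6, 19.9, 15.3 and 6.63 and Tlr6 of 4.38, 6.96, 6.96 and 6.56. For each of these 4 genes the 95% counting interval was above 1 in 4 of 4 libraries. Tlr6 remained under 10 CPM in both stages, while the other 3 genes were at 20.02 CPM or more in mature cells.

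Tlr4 and Myd88 differed less between the stages, with ratios of 1.95 to 2.35 and 1.36 to 1.67, each interval above 1 in 4 of 4 libraries. Cd14 had no shared direction: its ratio was 1.42 in Control with the interval above 1, 0.617 in Butyrate and 0.705 in B12+Butyrate with intervals below 1, and 1.03 in B12. Tlr7 was at 0.515 to 1.22, with the interval below 1 in 1 library. On the log2 scale with 10 CPM added to both values, 6 of the 10 members reached 10 CPM in either stage of every library. Of these, 4, namely Tlr2, Tlr4, Tlr13 and Ly96, were higher in mature cells by at least 0.5 in all 4 libraries. Over all genes, 19.3% of 6471 were higher by that mark and 22.3% lower. Tlr2, Tlr13 and Ly96 reached 10 CPM through the mature stage alone, so their count describes the set and supports nothing further. Mature cells were shallower, with a median of 5017.5 to 5749.5 UMIs against 12365 to 13588 in immature cells, and the part of depth in these ratios was not tested.

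**Figure D2:**
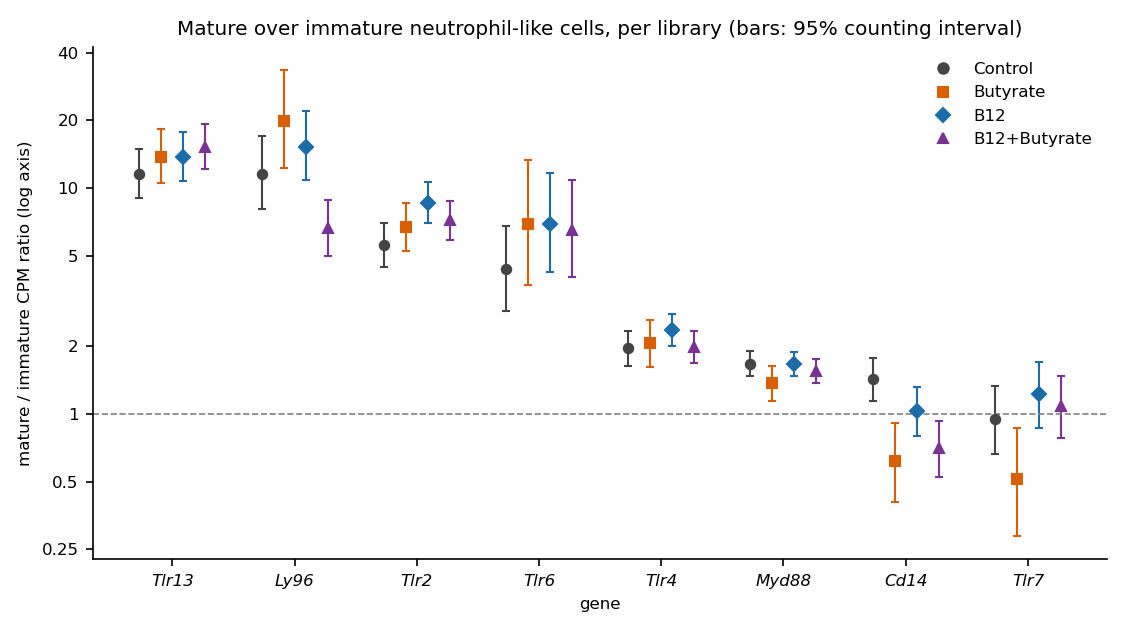
Ratio of CPM in mature over immature neutrophil-like cells (vertical log axis) for 8 members (horizontal axis) in each library, with 95% counting intervals as bars. All points of Tlr13, Ly96, Tlr2 and Tlr6 lie at 4.38 or more, those of Tlr4 and Myd88 lie between 1.36 and 2.35, and those of Cd14 and Tlr7 fall on both sides of 1.

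The monocyte lineage was read in the same way. From early to classical monocyte-like cells, the within-library ratio of Tlr13 was 8.95 to 19.1 and that of Tlr2 was 3.09 to 5.35. Tlr7 had ratios of 4.80, 7.32, 21.9 and 15.9, and the B12 value rests on 3 UMIs in early cells (interval 7.44 to 107). Ly96, Tlr4 and Myd88 had ratios of 2.08 to 3.36, 1.79 to 3.30 and 1.67 to 2.44, and Cd14 of 1.11 to 1.74. On the log2 scale 5 of 7 measured members, Tlr2, Tlr7, Tlr13, Ly96 and Myd88, were higher in classical cells by at least 0.5 in all 4 libraries, beside 13.1% of 8467 genes higher and 11.7% lower. Some of these members also passed the 10 CPM minimum through the classical stage alone. Classical cells were shallower, with a median of 11818.5 to 12789 UMIs against 26475 to 34033.5 in early cells. The part of depth in these ratios was not tested.

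The end points of the 2 lineages differed for 5 members. Classical monocyte-like cells had 0.535 to 0.796 times the Tlr4 and 0.690 to 0.881 times the Tlr13 of mature neutrophil-like cells. They had 1.502 to 1.96 times the Cd14 and 2.09 to 4.80 times the Tlr7. For Tlr1 the ratio was 5.42 in Control (3.05 to 10.6) and 4.66 in B12 (2.46 to 9.93). Mature neutrophil-like cells had 1 UMI of Tlr1 in each of the other libraries, where it was 22.4 (3.94 to 891) in Butyrate and 44.1 (7.73 to 1761) in B12+Butyrate. Each of these directions held in 4 of 4 libraries with the interval clear of 1. Mature neutrophil-like cells were shallower, with a median of 5017.5 to 5749.5 UMIs against 11818.5 to 12789 in classical monocyte-like cells. CPM are shares of the UMIs of a class, not molecules per cell, and the part of depth in these ratios was not tested.

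The share of cells with at least 1 UMI depends on depth, so cells were also thinned to 2000 UMIs. In mature neutrophil-like cells Tlr13 was detected in 24.3% to 30.02% of cells and, after thinning, in 10.5% to 12.9%. For Tlr2 these shares were 19.0% to 24.2% and 7.84% to 10.5%, and for Tlr4 they were 15.5% to 18.2% and 6.72% to 8.59%. T-like cells, of similar depth with a median of 4589 to 5185 UMIs, had a UMI of Tlr13 in 0% to 0.690%, of Tlr2 in 0.269% to 1.62% and of Tlr4 in 0.690% to 2.16% of cells. Myd88 was detected in 45.0% to 59.1% of classical monocyte-like cells and in 10.1% to 14.6% after thinning, beside 7.57% to 10.6% and 2.03% to 5.93% of T-like cells. For 4 of the 10 members, Tlr2, Tlr4, Tlr13 and Myd88, the lower end of the exact binomial interval of the thinned share in the leading class exceeded the upper end in T-like cells in all 4 libraries. For Tlr6 and Tlr9 it did so in 0 libraries, so a difference in their shares was not detectable at this depth. The leading class of a member was the one with its highest median CPM in these same libraries. An excess over T-like cells was therefore favoured by the choice of class, and the count describes the members and supports nothing further. Thinning left out 12 to 31 mature neutrophil-like, 5 to 29 classical monocyte-like and 10 to 33 T-like cells per library.

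The likeness of other genes to each member was measured by the Pearson correlation of log2 mean CPM over the 13 classes, among 9328 genes. These are descriptions over classes that share libraries and depth. Tlr2 and Tlr13 followed each other most closely of any pair of members (0.97). Tlr13 was most like Slc11a1, the phagosomal metal transporter (0.99), then Klra2, a lectin-like receptor of the Ly49 family (0.98), and the AP-1 gene Fos (0.97). Tlr2 was most like Klra2 (0.98), Lrrc25 (0.97) and Borcs6 (0.96). Tlr1 was nearest to Cd83, a surface marker of activated B and dendritic cells (0.98), Nfkb2, which encodes an NF-kB subunit (0.97), and Fgd6 (0.97). Tlr4 was nearest to Pstpip2 (0.89), Ssu72 (0.86) and Irak3, an inhibitor of IRAK signalling (0.85).

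The genes nearest to Cd14 were Gm36161 (0.96), Csf2ra, the GM-CSF receptor alpha chain (0.96), and Gm21188 (0.95). Ly96 was most like Ifrd1 (0.96), 2810013P06Rik (0.93) and the retinoic acid receptor gene Rara (0.93). Myd88 was most like Ehbp1l1 (0.97), Lrrc25 (0.95) and Clec7a, the receptor Dectin-1 (0.94). For Tlr7, Rubcnl (0.90) and Dclre1c (0.89) were among the nearest, and for Tlr6 the nearest were Gm5150 (0.94), Slc11a1 (0.94) and Pla2g7 (0.93). Tlr9, with few UMIs in every class, was nearest to Gpr137b (0.98), Kynu (0.98) and Lgmn (0.96).

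Butyrate in the drinking water was compared within each injection group, as Butyrate against Control and as B12+Butyrate against B12, which share no library. In classical monocyte-like cells Myd88, Tlr4 and Cd14 were lower in the butyrate library of both pairs. Myd88 was at 79.6, 54.8, 75.5 and 55.5 CPM, so the 2 libraries with NaCl water and the 2 with butyrate did not overlap. Its ratio was 0.689 without B12 (95% counting interval 0.638 to 0.744) and 0.735 with B12 (0.674 to 0.802). Tlr4, which also did not overlap, was at 0.662 times (0.576 to 0.759) and 0.755 times (0.648 to 0.878). Over the processing alternatives given at the end, the first Tlr4 ratio ranged from 0.647 to 0.905 and the second from 0.675 to 0.776. Cd14 was at 0.516 times (0.447 to 0.594) in the first pair and 0.839 times (0.713 to 0.987) in the second. For Ly96 and the lipopeptide receptors the intervals left out 1 in at most 1 pair. Tlr1, under 10 CPM in these cells, was at 0.708 times (0.566 to 0.883) and 0.909 times (0.692 to 1.19), and Tlr6 at 0.882 times (0.702 to 1.11) and 0.854 times (0.638 to 1.14). Ly96 was at 0.864 times (0.776 to 0.961) and 0.986 times (0.876 to 1.11), and the first of these turned to 1.13 with cells thinned to 2000 UMIs. Tlr2 was at 1.03 times (0.937 to 1.12) and 0.943 times (0.849 to 1.05). Tlr7, at 24.5, 23.5, 16.2 and 19.7 CPM, and Tlr13, at 45.7, 41.7, 38.0 and 42.5 CPM, pointed up in the second pair. Both were higher in B12+Butyrate than in B12 with intervals above 1, but turned to 0.867 and 0.966 times with thinning. In the first pair both were slightly lower in Butyrate. These intervals cover counting error only: they treat every UMI as an independent draw, and differences between mice or sorts are not in them. The share of all genes with an interval clear of 1 is not given here. Counts of members with such intervals, here and below, therefore describe the members alone. Markers of other classes moved as well: in classical monocyte-like cells the 6 GMP markers summed to 1069, 865, 1257 and 892 CPM and the 4 cycling markers to 945, 871, 972 and 714 CPM, all detected and both lower in both butyrate libraries without overlap. Their part in these differences was not tested. Fewer expressing cells and fewer molecules per cell cannot be told apart in these sums.

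On the log2 scale with 10 CPM added, which understates changes of low genes, few of these differences were large. Over the 10 members in neutrophil-like, monocyte-like and B-lineage-like cells, 15 of 30 pairs of member and class reached 10 CPM in Butyrate or Control. One was lower by at least 0.5, Cd14 in monocyte-like cells (-0.58, with 27.4 CPM in Control and 14.98 CPM in Butyrate), and 0 were higher. Of all genes in monocyte-like cells, 0.568% were lower and 0.627% higher by that mark. The shares lower and higher were 0.698% and 0.128% in neutrophil-like and 0.748% and 1.04% in B-lineage-like cells. In B12+Butyrate against B12, 14 pairs were measured and 0 passed the mark in either direction. There the shares of all genes lower and higher were 0.403% and 0.237% in monocyte-like, 0.131% and 0.0436% in neutrophil-like, and 1.69% and 1.08% in B-lineage-like cells. In monocyte-like cells the median log2 difference of the 7 measured members was -0.14 without B12 and -0.12 with B12, beside 0.00 and -0.01 for all genes.

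**Figure D3:**
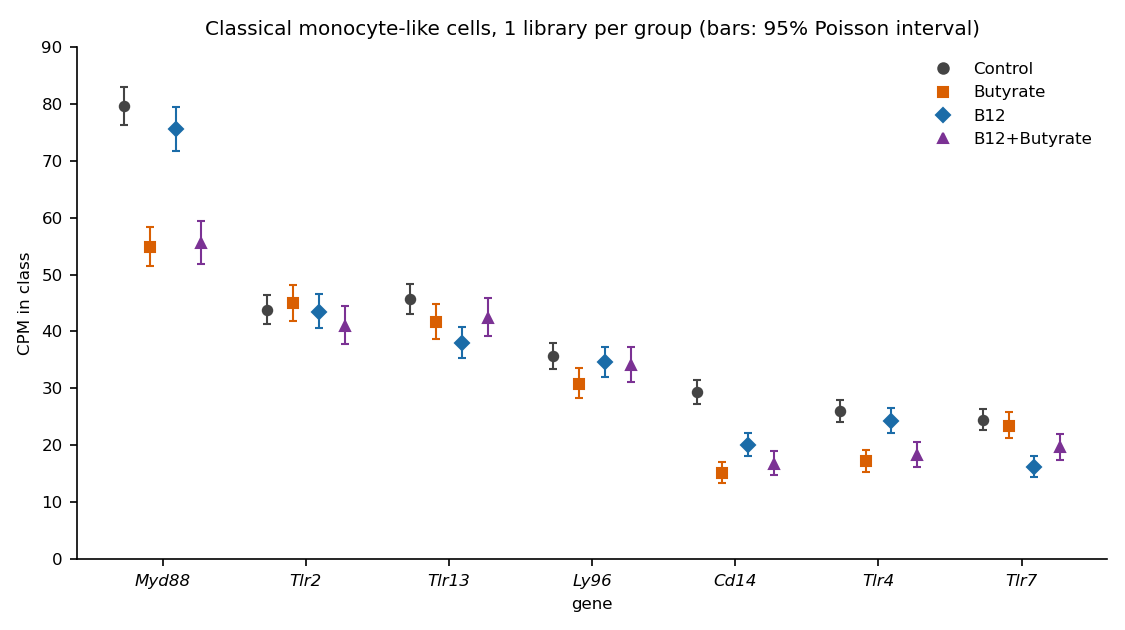
CPM in classical monocyte-like cells (vertical axis, from 0) for the 7 members that reached 10 CPM in every library (horizontal axis), with exact 95% Poisson intervals as bars and 1 library per group. Myd88 and Tlr4 are lower in both butyrate libraries than in both others, and Cd14 is highest in Control at 29.4 CPM.

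Cd14 in classical monocyte-like cells was past the mark in Butyrate against Control (log2 -0.65), as were 0.797% of genes in the lower direction. The summed level of the 10 neutrophil markers in the same cells was 2829, 1660, 2032 and 1858 CPM, which ranks the 4 libraries as Cd14 does. All 10 were detected, and in T-like cells their sum was 1325, 856, 1006 and 839 CPM, where Cd14 did not exceed 1.82 CPM. The 9 monocyte markers summed to 8936, 9389, 8999 and 9569 CPM. The part of neutrophil RNA in the Cd14 difference was not tested.

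The direction of Cd14 was also lower with butyrate in both pairs of mature neutrophil-like cells. It was at 0.473 times the Control level in Butyrate (0.305 to 0.713, from 29 and 126 UMIs) and at 0.643 times the B12 level in B12+Butyrate (0.454 to 0.904). Taken as a mean over cells of each cell's CPM, the second ratio was 0.423. In log2 terms these were -0.61 and -0.33, and 2.1% of genes in that class were lower by 0.5 or more in the first comparison. The GMP markers in these cells summed to 337, 133, 177 and 121 CPM and the cycling markers to 155, 69.6, 97.3 and 62.5 CPM, all detected, and both sums rank the 4 libraries as Cd14 does. Their part in the Cd14 difference was not tested. Myd88 in mature neutrophil-like cells was at 0.812 times (0.671 to 0.979) and 0.902 times (0.779 to 1.04). In immature neutrophil-like cells Myd88 stayed within 34.0 to 35.6 CPM in the 4 libraries. Cd14 was higher in Butyrate than in Control in immature (14.3 and 13.2 CPM) and cycling cells (8.13 and 6.66 CPM). It was lower in B12+Butyrate than in B12 in both, at 12.1 and 12.9 CPM in immature and 4.28 and 5.38 CPM in cycling cells.

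In DC-like cells, with 153 to 259 cells per library, Myd88 was again lower with butyrate, at 0.720 times (0.574 to 0.901) and 0.632 times (0.483 to 0.825). Lower by 0.5 or more on the log2 scale were Tlr13 (-0.54) and Cd14 (-0.51) in Butyrate against Control, where 2.69% of genes were. The Tlr13 ratio went from 0.533 to 0.0827 with thinning, and that of Cd14 from 0.490 to 0.984 with gates 2 times as high. In B12+Butyrate against B12 they were Tlr2 (-0.60), Myd88 (-0.57) and Ly96 (-0.51), where 3.96% of genes were, and the Ly96 ratio went from 0.579 to 0.334 with thinning. Only Myd88 among the 10 members had an interval below 1 in both pairs of that class, and Tlr2 pointed up in the first pair, at 1.21 times (0.886 to 1.67). The 5 macrophage markers in DC-like cells summed to 77.8, 33.1, 94.2 and 36.9 CPM and the 10 neutrophil markers to 1007, 697, 1061 and 574 CPM, both lower in the butyrate libraries as Myd88 was. Their part in the result was not tested. In plasmacytoid-DC-like cells Myd88 was at 0.589 times (0.418 to 0.828) (log2 -0.54, beside 1.44% of genes lower) and 0.779 times (0.474 to 1.28).

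Vitamin B12 was compared in the same way, as B12 against Control and as B12+Butyrate against Butyrate. In monocyte-like cells Tlr7 and Tlr6 were the 2 members whose interval was below 1 in both pairs. Tlr7 was at 23.0, 23.2, 14.6 and 16.8 CPM, so the 2 libraries without B12 and the 2 with B12 did not overlap. The ratios were 0.635 (0.558 to 0.723) and 0.724 (0.627 to 0.835), or -0.42 and -0.31 on the log2 scale. In the same cells the 8 conventional DC markers summed to 278, 378, 238 and 238 CPM, the 7 plasmacytoid DC markers to 269, 317, 239 and 249 CPM and the 5 mature B markers to 124, 166, 107 and 98.9 CPM. All were detected, and each sum was lower in both libraries with B12, as Tlr7 was. Their part in the Tlr7 difference was not tested. In classical monocyte-like cells alone the Tlr7 ratios were 0.660 (0.575 to 0.756) and 0.839 (0.720 to 0.977). Tlr6 in monocyte-like cells was at 7.66, 6.66, 5.98 and 4.57 CPM, with ratios of 0.781 times (0.631 to 0.964) and 0.687 times (0.519 to 0.904). These Tlr6 levels are under the 10 CPM minimum, and the ratios were not recomputed under the alternatives. In classical monocyte-like cells alone the Tlr6 interval held 1 in B12+Butyrate against Butyrate. Outside the monocytes, Cd14 in neutrophil-like cells was at 0.854 times (0.764 to 0.955) and 0.763 times (0.674 to 0.864), and in GMP-like cells at 0.526 times (0.345 to 0.792) and 0.505 times (0.311 to 0.813). The neutrophil stages differed in this: cycling cells had 6.66, 8.13, 5.38 and 4.28 CPM of Cd14. Immature cells hardly differed between B12 and Control (12.9 and 13.2 CPM), nor did mature cells between B12+Butyrate and Butyrate (8.56 and 8.85 CPM). No member had an interval above 1 in both B12 pairs of any class.

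Outside the monocytes no class had the Tlr7 interval below 1 in both B12 pairs. In B-lineage-like cells Tlr7 was at 0.682 times (0.456 to 0.999), or 0.397 with cells thinned to 2000 UMIs, and at 0.811 times (0.625 to 1.05) in the second pair. In plasmacytoid-DC-like cells it was at 0.432 times the Control level in B12 (0.253 to 0.703, from 20 and 100 UMIs, log2 -0.87), where 4.08% of genes were lower by 0.5 or more. In B12+Butyrate it was at 1.16 times the Butyrate level (0.810 to 1.64) and at 2.16 times the B12 level (1.27 to 3.83), the latter past the mark beside 5.44% of genes. In DC-like cells Tlr7 was higher in B12 than in Control (log2 0.55, beside 2.74% of genes higher), but the ratio went from 1.97 to 1.02 with thinning. In B12+Butyrate against Butyrate, DC-like cells had more Cd14 (log2 0.54, beside 1.95% of genes higher) and less Tlr2 (-0.50, beside 2.47% lower). The Cd14 ratio went from 2.12 to 1.16 with gates 2 times as high.

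In classical monocyte-like cells other members had intervals that left out 1 in at most 1 of the B12 pairs. Cd14 in classical monocyte-like cells was at 0.681 times (0.601 to 0.770) in B12 against Control and at 1.11 times (0.928 to 1.32) in B12+Butyrate against Butyrate. Tlr13 was at 0.833 times (0.759 to 0.913) and 1.02 times (0.914 to 1.13), and Myd88 at 0.949 times (0.887 to 1.01) and 1.01 times (0.922 to 1.11). Mature neutrophil-like cells had Tlr2 at 1.28 times (1.08 to 1.52) in B12 against Control but 0.878 times (0.721 to 1.07) in B12+Butyrate against Butyrate. Whether the pairs differ from each other was not tested.

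Over the 3 main classes, 15 of 30 pairs were measured in each B12 comparison and 0 passed 0.5 in either direction. In B12 against Control the shares of all genes lower and higher by that mark were 0.237% and 0.214% in monocyte-like, 0.386% and 0.0857% in neutrophil-like, and 1.43% and 3.24% in B-lineage-like cells. In B12+Butyrate against Butyrate they were 0.378% and 0.0709% in monocyte-like, 0.102% and 0.0435% in neutrophil-like, and 0.431% and 0.583% in B-lineage-like cells. In monocyte-like cells 7 of 7 measured members were lower in B12 than in Control, beside 48.6% of all genes (median log2 -0.11, beside 0.00 for all genes). With butyrate 4 of 7 were lower, beside 51.9% of all genes (median -0.04, beside -0.01). Over the processing alternatives, the B12 against Control ratios of Tlr2 (0.938 to 1.01) and Ly96 (0.951 to 1.04) fell on both sides of 1. So did those of Tlr4, Tlr13, Cd14, Ly96 and Myd88 in B12+Butyrate against Butyrate.

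**Figure D4:**
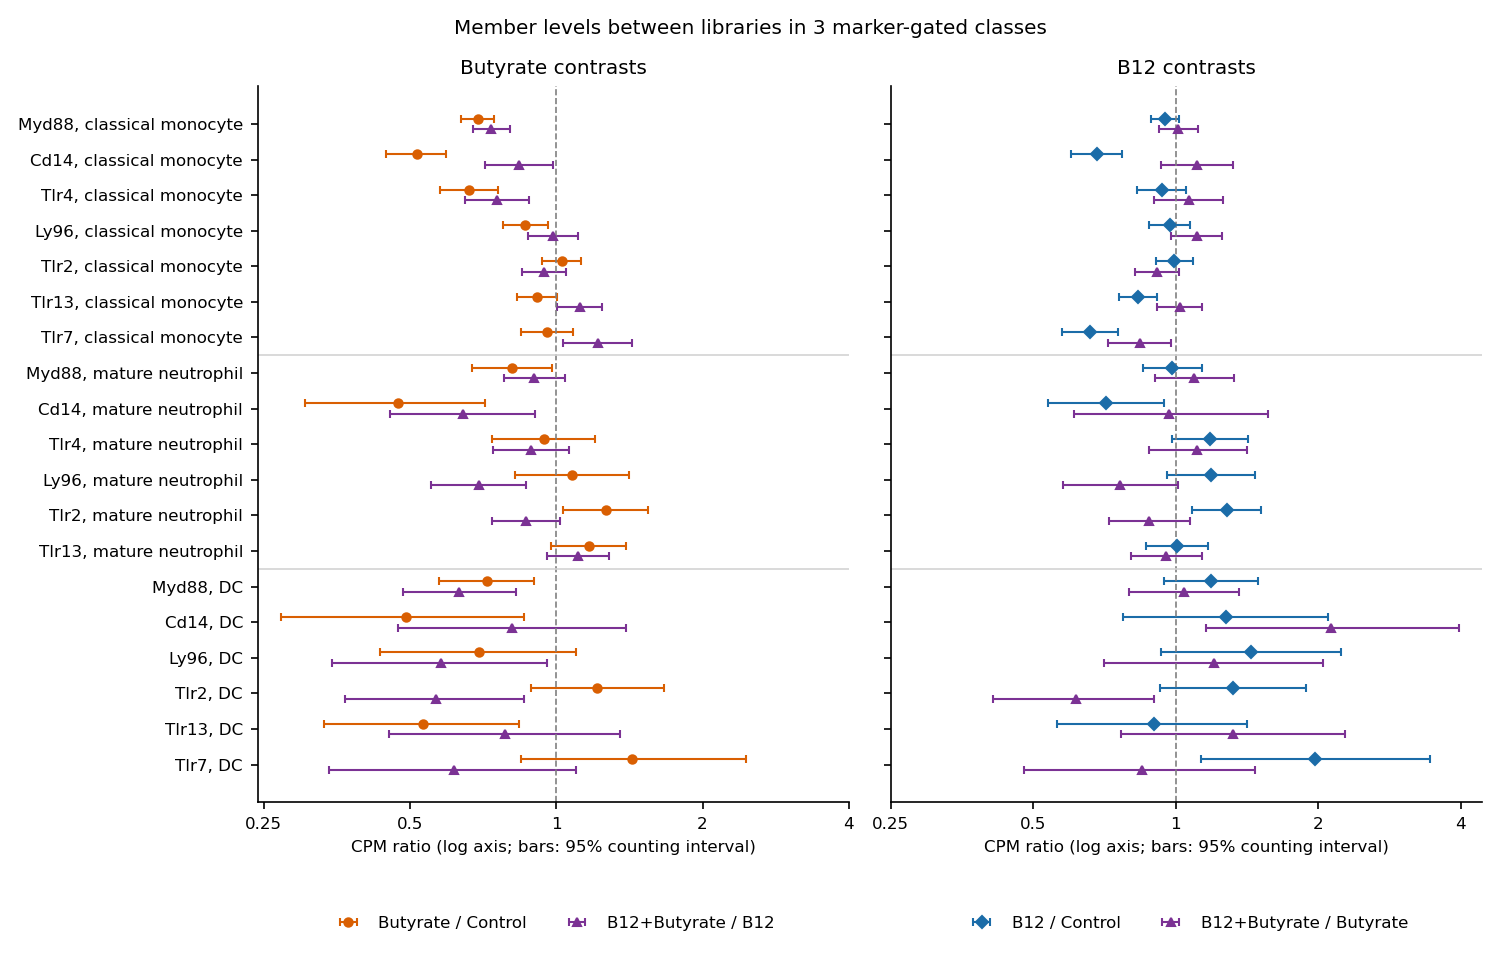
CPM ratios (horizontal log axes) between libraries for members in classical monocyte-like, mature neutrophil-like and DC-like cells, with butyrate contrasts on the left, B12 contrasts on the right and 95% counting intervals as bars. Myd88, Cd14 and Tlr4 of classical monocyte-like cells lie left of 1 in both butyrate contrasts, and Tlr7 of these cells lies left of 1 in both B12 contrasts.

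Another 44 genes of the pathway were followed as lists: 5 other receptors, 9 chaperones and co-receptors, 5 adaptors, 19 signalling proteins and 6 inhibitors. None passed 0.5 in the same direction in both comparisons of an agent within neutrophil-like, monocyte-like or B-lineage-like cells. In Butyrate against Control, 36 of the 44 were measured in monocyte-like cells, with 20 above 0, 16 below and a median of 0.02, beside 49.4% of all genes below 0 and a median of 0.00. In B12 against Control 36 were measured there, with 11 above 0, 25 below and a median of -0.09, beside 48.6% of all genes below 0 and a median of 0.00. Within these 3 classes, 3 genes were past the mark in at least 1 of the 4 comparisons, and they were picked out after their values were seen. The shares of all genes past it in each class are those given above. Cd36, a scavenger receptor that assists TLR2, was at 14.6, 29.8, 26.0 and 14.6 CPM in B-lineage-like cells. Tnfaip3, which encodes the NF-kB inhibitor A20, was at 69.9, 87.8, 60.8 and 47.4 CPM in monocyte-like cells, a log2 difference of -0.77 between B12+Butyrate and Butyrate. In neutrophil-like cells the same comparison gave -0.56. Irf7, an interferon regulatory factor, was at 6.97, 7.05, 12.1 and 4.81 CPM in B-lineage-like cells, a log2 difference of -0.58 between B12+Butyrate and B12.

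Along the neutrophil stages, 29 of the 44 genes were measured, and 6 were higher and 4 lower in mature than in immature cells by at least 0.5 in all 4 libraries, beside 19.3% of all genes higher and 22.3% lower. Of the 10, those described here were named after their values were seen. Slc15a3, an endolysosomal transporter, stood at 98.4 to 125 CPM in mature and 2.01 to 4.15 CPM in immature cells. Tlr5, the flagellin receptor, stood at 10.1 to 14.1 CPM and 0.540 to 0.890 CPM. Irak4, the kinase that MyD88 recruits first, stood at 66.3 to 75.8 CPM and 34.2 to 38.0 CPM. These genes were picked among those higher in mature cells in all 4 libraries, so their direction follows from the choice. Their ranges did not overlap those of immature cells, and Slc15a3 and Tlr5 reached 10 CPM through the mature stage alone.

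Hsp90b1, which encodes the chaperone gp96 that folds most Toll-like receptors, had the opposite direction. It was at 47.7 to 58.0 CPM in mature and 185 to 215 CPM in immature neutrophil-like cells. Unc93b1, which carries endosomal receptors out of the endoplasmic reticulum, did not pass the mark, at 102 to 111 CPM and 94.1 to 97.6 CPM. From early to classical monocyte-like cells 35 of the 44 were measured, and 11 were higher and 2 lower in all 4 libraries, beside 13.1% of all genes higher and 11.7% lower. Hsp90b1 was again among the lower ones, at 386 to 463 CPM in classical against 793 to 969 CPM in early cells. Irf5, a factor activated through MyD88, was among the higher ones, at 150 to 162 CPM in classical and 33.2 to 51.7 CPM in early cells.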

How the data were processed

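One single-cell RNA-seq library per group was analysed. The authors deposited raw counts of UMIs for every gene and barcode; Cell Ranger 7.1.0 is named per the file headers and GRCm39 per the submitters' processing notes. Whether intronic reads were counted was not given in the sources used here. Barcodes with fewer than 500 genes, fewer than 1000 UMIs or over 10% mitochondrial UMIs were dropped. Marker genes gated each barcode, barcodes of more than 1 lineage were left out as possible doublets, and no doublet caller was run. Gate minimums were set on histograms of marker UMIs, never on a member. Counts were summed per class and library and divided by the class total (CPM). Exact 95% Poisson intervals (CPM), exact conditional intervals (ratios) and Clopper-Pearson intervals (shares) cover counting error only. The log2 ratio adds 10 CPM to both sides and needs 10 CPM in either library. Members, lists and alternatives were chosen with earlier results of these data known. The genes named by rule are the 10 members, for each the 3 genes with the most similar class profile (at 20 CPM or more in a class, class markers left out), and pathway genes past 0.5 in both comparisons of an agent. Of the genes this rule names, 1 is not reported here. Python 3.11.15, numpy 2.4.6, scipy, pandas and matplotlib were used, and the code was tested on simulated data.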

Additional observations from a re-analysis of the deposited data

Results flagged for a closer look

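Of 2 pathway genes, the contrast of an agent pointed in opposite directions with and without the other agent, with counting intervals clear of 1 on both sides; the difference between the contrasts was not tested. Cd36 in B-lineage-like cells was at 1.78 times the Control level in B12 and at 0.49 times the Butyrate level in B12+Butyrate. The same 4 values give 2.04 times the Control level in Butyrate and 0.561 times the B12 level in B12+Butyrate, so Cd36 was higher with either agent alone and not with both. Cd36 was at 22.1 to 64.6 CPM in early B-like and 11.3 to 20.7 CPM in mature B-like cells. The libraries held 165, 136, 116 and 161 early and 670, 843, 395 and 856 mature B-like cells in the order Control, Butyrate, B12, B12+Butyrate, and the part of this makeup in the result was not tested. Tnfaip3 in monocyte-like cells was at 1.26 times the Control level in Butyrate and at 0.779 times the B12 level in B12+Butyrate.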

How the results depend on the processing

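No paired analysis was possible because each group has 1 library and the comparisons come from no test. In 6 classes, 50 of 142 ratios had an interval that left out 1, a count without the share of all genes beside it. The alternatives gave 369 values of these that they could change, and 365 stayed on the same side of 1. Of those, 16 moved outside the reported interval, 12 with every cell thinned to 2000 UMIs, 3 with a mean over cells and 1 with gates 2 times as high. The same makeup of monocyte stages, an alternative chosen after seeing the data, bears on monocyte-like cells alone, and 14 of 14 ratios there stayed within their intervals. The 4 reversals came with thinning. There Ly96 in Butyrate against Control was at 1.07 in monocyte-like and 1.13 in classical monocyte-like cells, and in B12+Butyrate against B12 Tlr7 was at 0.867 and Tlr13 at 0.966 in classical monocyte-like cells; the alternative keeps fewer UMIs. The count of pairs past 0.5 lower was 0 in B12 against Control, 1 in Butyrate against Control and 0 in B12+Butyrate against B12. With 1 CPM added in place of 10, it was 3, 3 and 1, since the smaller addition enlarges the log2 ratio of low genes. In B12 against Control it was 1 with thinning and 1 with a mean over cells, each time Tlr7 in B-lineage-like cells; the cause was not tested. In B12+Butyrate against B12 the higher count was 1 in place of 0 with thinning, again Tlr7 in B-lineage-like cells. The leading class was unchanged for 10 of 10 members with a looser cell filter and with gates 2 times as high, which raised Tlr7 in plasmacytoid-DC-like cells to a median of 58.1 CPM. Thinned to 1000 UMIs, 3 in place of 4 members exceeded the T-like share. Depth limits Tlr6, Tlr9 and all values in the small DC-like classes. The ratios recomputed under the alternatives were those at 10 CPM or more in either library of these 6 classes. Contrasts in other classes, such as plasmacytoid-DC-like and GMP-like cells, and ratios under that minimum were not recomputed.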
